A study of Mus musculus with 167 samples.

Results

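Lymphoid-primed multipotent progenitors (LMPPs) of 14-month-old mice were deposited under 2 set numbers, 5 and 4, and the cells of set 5 were compared with those of set 4. The members were the columns of the deposited expression table whose names carry set number 5 or 4, kept where 1000 or more genes reached 1 TPM, a unit of transcript abundance that adds up to one fixed total per cell. This kept 37 of the 39 columns of set 5 and 29 of the 45 columns of set 4, or 66 of the 168 columns of the whole series. The 84 columns of 4-month-old mice were not used. Both sets came from wild-type female C57BL/6J mice of 14 months, untreated as far as the labels say, and they share 1 sort: marrow mononuclear cells depleted of lineage-positive cells and gated for Sca-1, c-Kit, CD34 and high Flt3, with cells positive for CD150 or lineage markers left out. Single cells were then captured and their cDNA amplified on a Fluidigm C1 chip. The sources used here do not say what the set number stands for. No animal is named, and the labels list 83 cells of 14 months against 84 columns. Each set is therefore 1 sample, no test over cells was made, and every difference below describes these captured cells with no replicate check.

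LMPPs are early blood progenitors that keep lymphoid and granulocyte-monocyte potential and have largely lost the ability to make platelets and red cells. Single LMPPs are known to carry transcripts of both fates at low level, such as Dntt, the DNA polymerase that adds bases to antigen receptor joints, and Mpo, the myeloperoxidase of granules. Many of them cycle, so genes of DNA replication and mitosis vary from cell to cell.

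The columns left out held 845 and 931 genes in set 5 and at most 998 genes in set 4. The lowest kept cells lay just over the threshold, with 1021 genes in set 5 and 1043 in set 4. Kept cells of set 5 had 1021 to 6160 genes with a median of 3376, against 1043 to 4825 genes with a median of 3230 in set 4. Over all columns the medians stood further apart, at 3284 genes in set 5 and 2403 in set 4. Mitochondrial genes took a median of 15.8% of TPM in set 5 and 20.5% in set 4, and went above 50% in 2 cells of set 5 and 1 cell of set 4. A single nuclear gene held over 10% of TPM in 1 kept cell of each set. It was the antimicrobial peptide gene Camp at 36.5% in set 5 and the pseudogene Rpl15-ps3 at 56.3% in set 4. Because every column has the same total, such a cell has lower values for all its other genes. TPM does not keep the number of reads, so depth is unknown and the count of genes detected stands in for it.

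**Figure D1:**
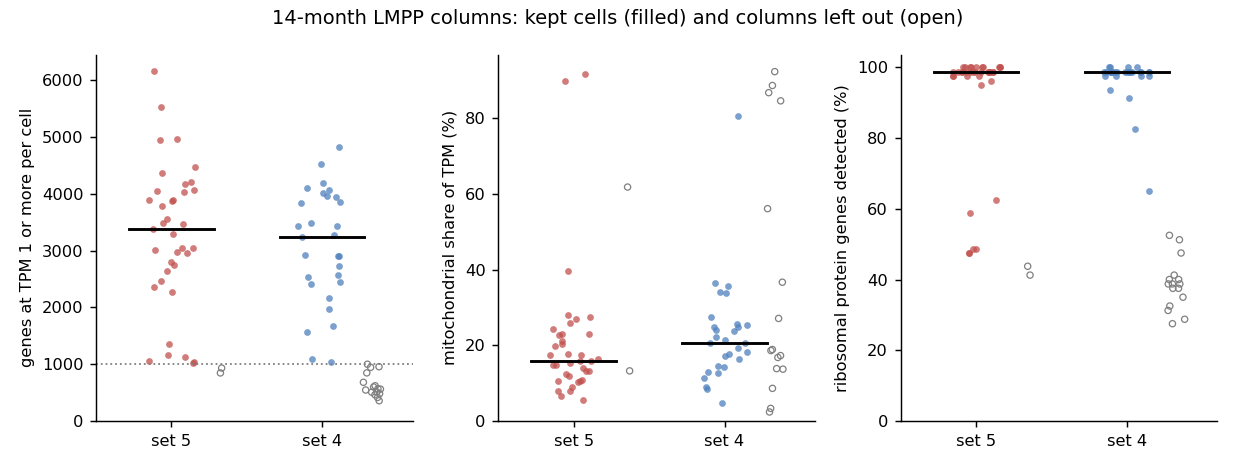
Genes at TPM 1 or more, mitochondrial share of TPM and share of ribosomal protein genes detected, for each 14-month column of set 5 and set 4. Filled points are kept cells with their median as a bar and open points are columns left out; the median is 3376 genes in set 5 and 3230 in set 4, and 6 cells of set 5 and 1 of set 4 detected under 70% of the ribosomal protein genes.

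Some cells were far more alike than the rest. Among the 2145 pairs of kept cells, 6 had a Spearman correlation above 0.5 across the measured genes, and the next pair had 0.46. These pairs joined 10 cells in 4 groups, 9 cells of set 5 and 1 of set 4. The closest pair crossed the sets: cell 94 of set 5 and cell 76 of set 4 had a correlation of 0.93 and detected 4213 and 4516 genes, 3943 of them in both. Their levels differed by a median of 0.31 on the log2 scale, against a median of 1.77 and a lowest value of 0.58 among the pairs of the other cells. Within set 5, cells 72 and 73 had a correlation of 0.77. Cell 82 had correlations of 0.78 with cell 76 and 0.77 with cell 80, while cells 76 and 80 had 0.43 with each other. The mean of cells 76 and 80 had a correlation of 0.97 with cell 82, and 97.3% of the 5529 genes of cell 82 were detected in one or the other of them. Cells 54, 60 and 61 formed the last group, with correlations of 0.57, 0.66 and 0.45. No columns were identical. These cells cannot be taken as independent, so results are also given without all 10 of them, which leaves 28 cells in each set; this alternative was chosen after seeing the data.

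**Figure D2:**
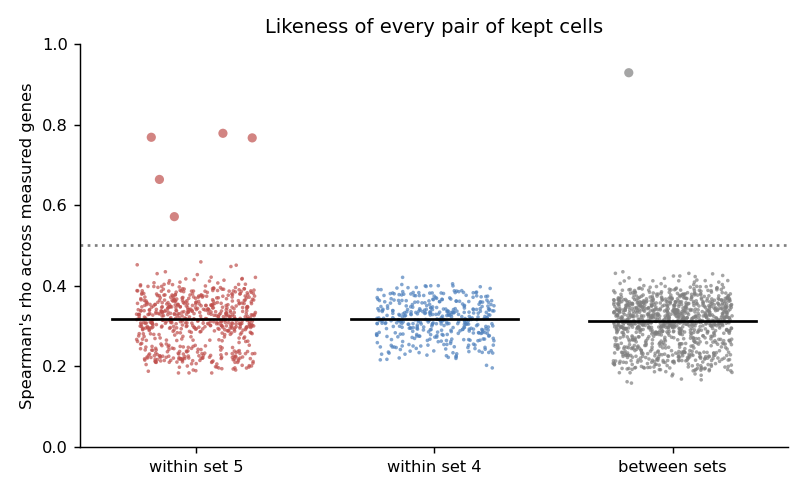
Spearman's rho across the measured genes for every pair of kept cells, within set 5, within set 4 and between the sets, with the median of each kind as a bar. Pairs above the dotted line at 0.5 are drawn larger; 5 lie within set 5, none within set 4 and 1 between the sets.

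The typical pair of cells was about as alike between the sets as within them. The median correlation of a pair was 0.318 within set 5, 0.316 within set 4 and 0.312 between the sets. Without the alike cells the medians were 0.314, 0.316 and 0.309. The most similar cell belonged to the same set for 34 of 37 cells of set 5 and 17 of 29 cells of set 4, where 55.4% and 43.1% of the other cells were of the same set. Without the alike cells these counts were 22 of 28 and 18 of 28, beside 49.1% for each. The first principal component held 10.8% of the variance and followed the number of genes detected (Pearson's r of 0.97 over the 66 cells, a description only).

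A set difference in noncoding entries lay in short repeated sequences, and the sequences below show what some of these entries are. They were singled out after the values had been seen. All 22 measured genes of GENCODE type miRNA are 124 to 126 bases long, 95.2% to 100% identical to one of their number, and hold 1 common run of 16 bases. They resemble B1, a short interspersed repeat with a very large number of copies in the mouse genome, so the entries are called B1-like here and no mature miRNA is meant. U1 and U2 are small nuclear RNAs of the spliceosome; capitals mark the bases by which U1 pairs with the 5′ splice site and U2 with the branch site. Gm10800 is one of a family of annotated genes made of satellite repeat, of which the first 216 of 660 bases are given, with a recurring run of 8 bases in capitals that occurs 5 times in the whole. The letters come from the GENCODE annotation of mm10, 5′ to 3′ on the gene's strand.
Rnu1a1 (U1, chr11:87422867-87423030, plus strand): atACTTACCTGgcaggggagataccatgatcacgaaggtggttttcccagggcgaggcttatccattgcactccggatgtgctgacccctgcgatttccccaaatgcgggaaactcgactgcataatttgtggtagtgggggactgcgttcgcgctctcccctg
Rnu2-10 (U2, chr11:101658238-101658428, plus strand): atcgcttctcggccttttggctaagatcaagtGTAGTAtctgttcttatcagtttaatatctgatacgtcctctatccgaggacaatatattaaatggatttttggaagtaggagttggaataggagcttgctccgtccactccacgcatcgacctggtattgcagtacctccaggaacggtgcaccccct
Gm10800 (chr2:98666547-98667301, minus strand): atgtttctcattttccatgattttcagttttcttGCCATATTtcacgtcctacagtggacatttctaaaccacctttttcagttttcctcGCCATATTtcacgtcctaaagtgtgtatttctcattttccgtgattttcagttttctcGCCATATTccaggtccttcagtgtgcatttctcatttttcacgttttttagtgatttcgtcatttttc

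B1-like entries were found in fewer cells of set 5 than of set 4. Summed over the 22 entries, they reached 1 TPM in 14 of 37 cells of set 5 (37.8%, exact Clopper-Pearson 95% interval 22.5% to 55.2%), against 21 of 29 cells of set 4 (72.4%, 52.8% to 87.3%). Such intervals here cover counting error only. The summed level had a lowest value of 0, a median of 0 and a highest value of 28813 TPM in set 5, against 0, 5244 and 42028 TPM in set 4. In both sets cells either lacked these entries or had them at a high level. Without the alike cells the counts were 10 of 28 cells of set 5 and 21 of 28 cells of set 4. Mitochondrial share moved with these entries in both sets: cells with them had a median of 23.0% in set 5 and 24.0% in set 4, and cells without them 13.2% in set 5 and 12.7% in set 4. Cells with these entries detected 2269 to 6160 genes in set 5 and 1043 to 4193 in set 4. The 6 cells of set 5 with 1021 to 1361 genes thus had none. The part of mitochondrial share or of genes detected in the difference between the sets was not tested. Protein-coding genes whose transcripts hold the same 16 bases did not share the pattern; their median difference between the sets, relative to all measured genes, was 0.01 on the log2 scale over 439 genes.

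The U1 and U2 entries stood the other way. U1 entries summed to 1 TPM or more in 23 of 37 cells of set 5 (62.2%, 44.8% to 77.5%) and 12 of 29 cells of set 4 (41.4%, 23.5% to 61.1%), with medians of 142 TPM in set 5 and 0 in set 4. U2 entries did so in 25 of 37 cells of set 5 (67.6%, 50.2% to 82.0%) and 11 of 29 cells of set 4 (37.9%, 20.7% to 57.7%), with medians of 154 TPM in set 5 and 0 in set 4. The intervals of the sets overlap for both families. The 6 cells of set 5 with 1021 to 1361 genes had neither U1 nor U2 entries. Several U1 and several U2 entries have the same letters and the same values, since reads of near-identical copies are divided among them, so the sums and not the 20 measured snRNA entries are the units here. Satellite-like genes were found in 33 of 37 cells of set 5 and all 29 cells of set 4. Their summed medians were 60.4 TPM in set 5 and 161 TPM in set 4. The set 5 cells without them detected 1021, 1156, 1361 and 4213 genes, the last being cell 94, an alike cell. The highest cell, at 12499 TPM, was in set 5 and detected only 1129 genes. All 10 measured satellite-like genes had a lower mean log2 level in set 5.

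**Figure D3:**
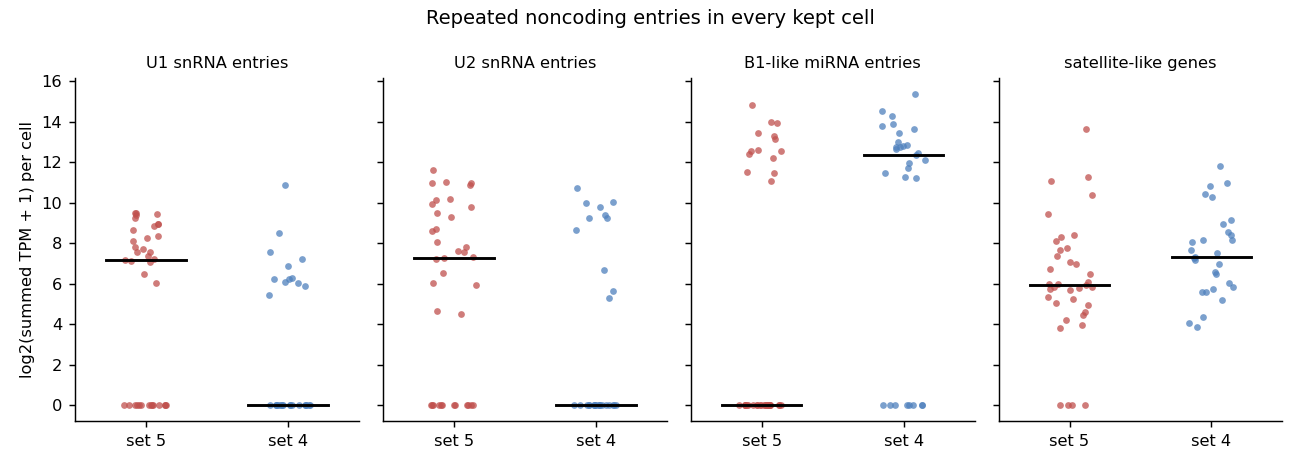
Summed level of U1 entries, U2 entries, B1-like entries of type miRNA and satellite-like genes, as log2(summed TPM + 1), for each kept cell of set 5 and set 4 with the median as a bar. U1 and U2 medians are above 0 only in set 5, and the B1-like median is above 0 only in set 4.

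Across all genes the typical gene differed little between these captured cells, and some single genes had larger differences. Genes were counted as measured where the shares of cells detecting them at TPM 1 or more, averaged over both sets, came to at least 10%, which held for 8161 genes. The difference given is the mean log2(TPM + 1) of set 5 minus that of set 4, less the difference of the median measured gene, which was 0.10. It is called the relative difference below and is on the log2 scale, where the added 1 makes differences of low genes smaller. Before the median was taken off, 57.6% of measured genes had the higher mean in set 5. It was 1 or more for 614 genes (7.52%) and -1 or less for 429 genes (5.26%). Without the alike cells the counts were 645 and 569, and 442 and 352 of the genes were shared with the counts over all cells. The spread among cells was large in both sets, with a median SD over measured genes of 2.44 in set 5 and 2.32 in set 4 on the log2 scale. The part of this spread in the differences of single genes was not tested.

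The genes of the sort gate were present in both sets, and Cd34 was the one below the median gene in set 5. Cd34, a surface sialomucin, had a lowest value of 0, a median of 180 and a highest value of 1129 TPM in set 5, against 0.29, 280 and 1338 TPM in set 4. Its relative difference was -1.48, and it was detected in 31 of 37 cells of set 5 and 27 of 29 cells of set 4. Flt3, the receptor for which the gate takes high cells, was found in 36 of 37 cells of set 5 and 25 of 29 cells of set 4, with medians of 153 TPM in set 5 and 73.8 TPM in set 4 and a relative difference of 0.99. Kit, the stem cell factor receptor, was detected in 22 of 37 cells of set 5 and 13 of 29 cells of set 4, with a relative difference of 1.19. Ly6a, which encodes Sca-1, was detected in 15 of 37 cells of set 5 and 10 of 29 cells of set 4; its relative difference of 0.87 became 0.02 without the alike cells. The levels of all 4 genes overlapped between the sets.

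Lymphoid genes did not move as a group. Of 19 measured early lymphoid genes, 4 had a relative difference of 1 or more and 2 of -1 or less. The shares over all measured genes were 7.52% and 5.26%. Of the 19, 12 were above and 7 below the median gene, and the median was 0.10. That median was -0.03 without the alike cells, where none of 17 measured genes was at 1 or more. Dntt was detected in 33 of 37 cells of set 5 (89.2%, 74.6% to 97.0%) and 24 of 29 cells of set 4 (82.8%, 64.2% to 94.2%), with medians of 428 TPM in set 5 and 224 TPM in set 4. Its relative difference was 1.17, or 0.83 without the alike cells, and the intervals of its shares overlap. Il7r, the interleukin-7 receptor chain that lymphoid precursors depend on, was detected in 10 of 37 cells of set 5 and 3 of 29 cells of set 4, with relative differences of 1.06 and, without the alike cells, 0.59. Lax1 and the transcription factor gene Tcf3 had -1.03 each; Tcf3 had -0.94 without the alike cells.

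Granule protease genes of the same family lay on opposite sides. Prtn3, proteinase 3, was detected in 25 of 37 cells of set 5 and 25 of 29 cells of set 4, with medians of 90.1 TPM in set 5 and 295 TPM in set 4 and a relative difference of -1.98. Elane, neutrophil elastase, was detected in 10 of 37 cells of set 5 (27.0%, 13.8% to 44.1%) and 1 of 29 cells of set 4 (3.45%, 0.0873% to 17.8%). Without the alike cells its shares were 21.4% in set 5 and 3.57% in set 4. Its highest cell reached 13816 TPM in set 5 and 375 TPM in set 4. Ctsg, cathepsin G, was detected in 13 of 37 cells of set 5 and 8 of 29 cells of set 4 with a relative difference of -0.45. Mpo had medians of 34.8 TPM in set 5 and 1.43 TPM in set 4, a highest level of 13569 TPM in set 5 and 2408 TPM in set 4, and a relative difference of 1.14, or 0.78 without the alike cells. Over 17 measured granulocyte-monocyte genes the median was 0.11, with 3 at 1 or more and 3 at -1 or less. All measured genes had shares of 7.52% and 5.26% there. Csf3r, the G-CSF receptor, and Lyz2, lysozyme, were among the lower genes of this list at -1.17 and -1.11. Lyz2 had -1.81 without the alike cells.

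Read per cell, Dntt and Mpo transcripts were often detected together in each set. At TPM 1 or more, both were detected in 21 of 37 cells of set 5 (56.8%, 39.5% to 72.9%) and 15 of 29 cells of set 4 (51.7%, 32.5% to 70.6%). The share of set 4 cells with Mpo was 55.2%, and it ran from 41.4% to 69.0% over 9 alternative settings. The set 4 share with both genes thus depends on the setting. Dntt without Mpo was found in 12 of 37 cells of set 5 and 9 of 29 cells of set 4. Mpo without Dntt was found in 4 of 37 cells of set 5 and 1 of 29 cells of set 4. Cells with neither numbered 0 of 37 in set 5, which allows a share of up to 8.11% by the floor of 3 cells and up to 9.49% by the exact interval, and 4 of 29 in set 4. Stem cell genes lay on both sides of the median gene. Of 13 measured, 5 were above and 8 below, 1 was at 1 or more and 1 at -1 or less, with a median of -0.08. The shares over all measured genes were 7.52% and 5.26%. Without the alike cells 1 was at 1 or more and 3 at -1 or less, beside 8.05% and 7.10%, with a median of 0.01. Hlf and Mecom, transcription factors of stem cells, had -0.08 and 0.12. Meis1 had 1.35, or 2.19 without the alike cells. Myct1 had -1.26 and Ifitm1 -0.84, or -1.09 and -1.47 without the alike cells.

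**Figure D4:**
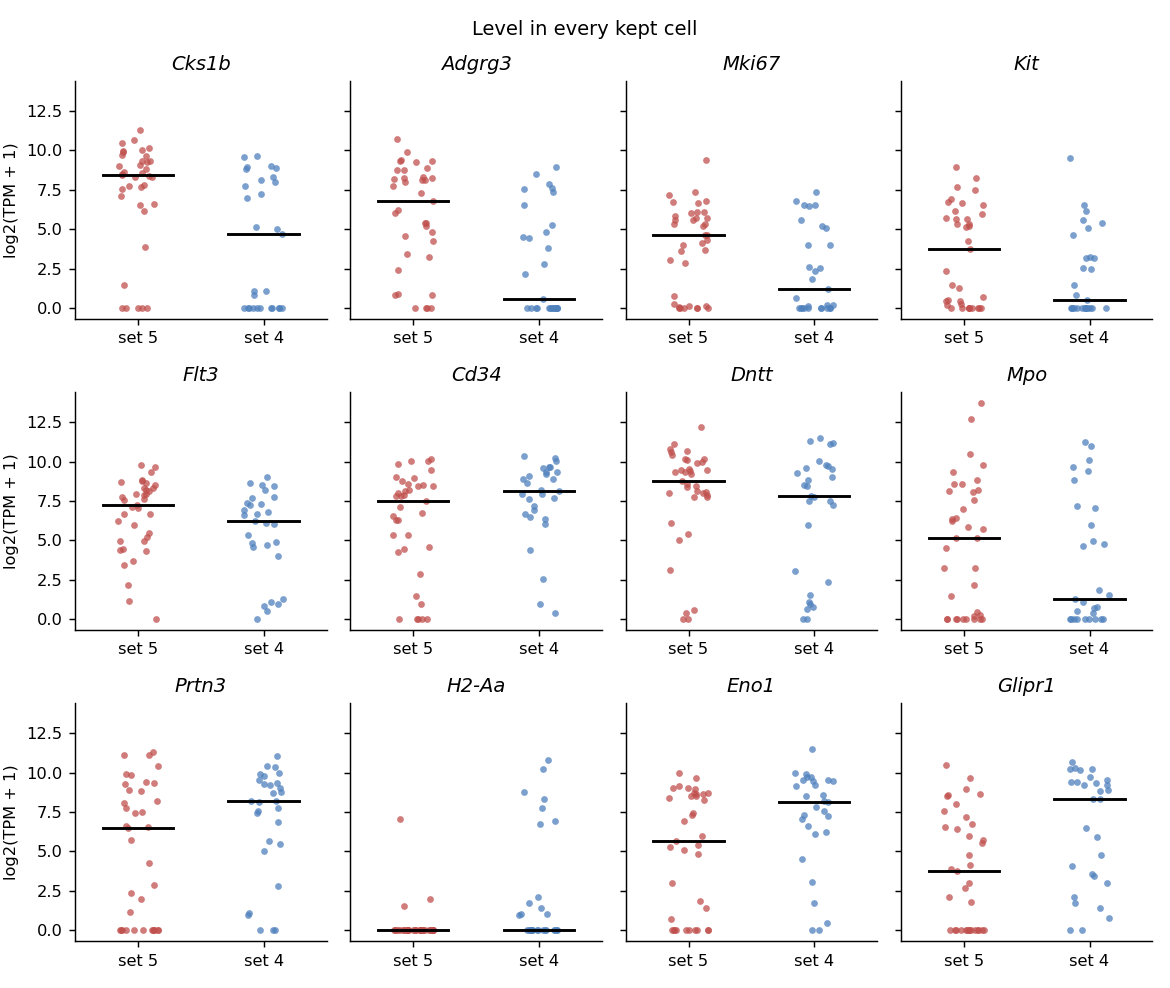
Level of 12 genes as log2(TPM + 1) in every kept cell of set 5 and set 4, with the median as a bar. The sets overlap for every gene; Cks1b has a median of 352 TPM in set 5 and 24.9 TPM in set 4, and Glipr1 has 12.4 TPM in set 5 and 328 TPM in set 4.

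Over all kept cells, mitosis genes were more often above the median gene than below it in set 5. Of 69 measured G2 and mitosis genes, 52 were above the median gene and 17 below it. In this group 10 had a relative difference of 1 or more (14.5% of the group, beside 7.52% of all measured genes) and none of -1 or less (beside 5.26%), and the median was 0.35. With the alike cells left out, 51 of 70 were above, 11 were at 1 or more, none at -1 or less, and the median was 0.34. Set against genes of like mean level the median was 0.32, and against genes of like transcript length 0.28. In 26 cells of each set matched on the number of genes detected the median was 0.000788, and when each gene was summarised by its median cell it was 0, so the shift of the list was seen in neither.

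Cks1b, a small subunit of cyclin-dependent kinases, led this group and all named genes. It lies at chr3:89415472-89418383 on the minus strand of mm10. Its level had a lowest value of 0, a median of 352 and a highest value of 2565 TPM in set 5, against 0, 24.9 and 786 TPM in set 4. It was detected in 32 of 37 cells of set 5 (86.5%, 71.2% to 95.5%) and 17 of 29 cells of set 4 (58.6%, 38.9% to 76.5%). Its relative difference was 3.05, and 3.81 without the alike cells. Most cells of set 5 had it at a high level, while set 4 was split between cells with a high level and cells at or near 0.

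Other mitosis genes followed at smaller size. Smc4, a condensin subunit, had a relative difference of 1.63, with detection in 31 of 37 cells of set 5 and 19 of 29 cells of set 4. Mad2l1, of the spindle checkpoint, had 1.45, and Prc1, which bundles spindle microtubules, had 1.37. Mki67, the Ki-67 proliferation antigen, had medians of 23.3 TPM in set 5 and 1.29 TPM in set 4, with a relative difference of 1.37. Top2a, the topoisomerase of dividing cells, had 0.75 and Cdk1, the mitotic kinase, 0.37, so both stayed under 1. The lowest members were Ube2s at -0.86 and Nusap1 at -0.79. Top2a or Mki67 was detected in 32 of 37 cells of set 5 (86.5%, 71.2% to 95.5%) and 21 of 29 cells of set 4 (72.4%, 52.8% to 87.3%), and the median cell detected 34.8% of the group in set 5 and 30.4% in set 4.

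Replication genes were more even. Of 61 measured S phase genes, 4 were at 1 or more and 2 at -1 or less (7.52% and 5.26% of all measured genes). In this list 36 were above the median gene and 25 below it, and the median was 0.12. Gmnn, geminin, which blocks a second round of origin licensing, had the highest value at 1.88, and Slbp, the histone mRNA binding protein, had 1.73. Rfc3, a clamp loader subunit, had -1.02. Pcna, the replication clamp, had medians of 263 TPM in set 5 and 270 TPM in set 4 and a relative difference of -0.16, and Mcm5, a helicase subunit, had 0.43. Cell cycle inhibitors had a median of 0.29 over 8 genes, with none at 1 or more or at -1 or less. Tob1, an antiproliferative gene, was detected in 11 of 37 cells of set 5 and in no cell of set 4. Without the alike cells its share in set 5 was 21.4%.

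**Figure D5:**
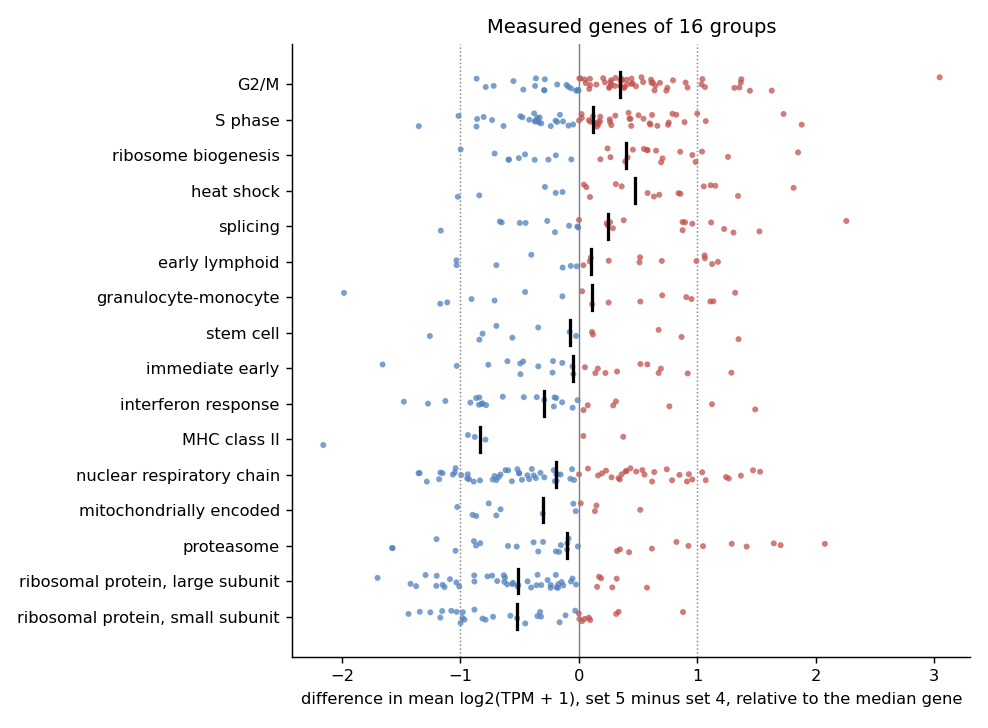
Relative difference (mean log2(TPM + 1), set 5 minus set 4, less that of the median measured gene) of each measured gene, grouped by list, with the list's median as a bar and dotted lines at 1 and -1. G2/M genes lie mostly to the right of 0 with a median of 0.35, and ribosomal protein genes of the large and small subunits lie mostly to the left with medians of -0.51 and -0.52.

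After Cks1b, the highest relative differences belonged to genes of varied function. Adgrg3, an adhesion G protein-coupled receptor of blood cells, was detected in 30 of 37 cells of set 5 (81.1%, 64.8% to 92.0%) and 14 of 29 cells of set 4 (48.3%, 29.4% to 67.5%), with medians of 112 TPM in set 5 and 0.50 TPM in set 4 and a relative difference of 2.91. Utp4, of small ribosomal subunit assembly, was detected in 22 of 37 cells of set 5 and 6 of 29 cells of set 4 and had 2.71. Gtf2a2, a subunit of the basal transcription factor TFIIA, had 2.69, and Tifa, an adaptor of NF-kB signalling, had 2.67 with detection in 17 of 37 cells of set 5 and 3 of 29 cells of set 4. Without the alike cells the values were 1.95 for Gtf2a2 and 1.76 for Tifa, 3.18 for Adgrg3 and 3.19 for Utp4. Mad2l2, Tmem263, Rab38, Chchd4, H2-Ob, Ppil1 and Mrpl17 made up the rest of the top 12, with values between 2.45 and 2.61 over all cells and between 1.98 and 2.92 without the alike cells.

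The lowest value belonged to Glipr1, a secreted protein of the CAP family. It was detected in 23 of 37 cells of set 5 (62.2%, 44.8% to 77.5%) and 26 of 29 cells of set 4 (89.7%, 72.6% to 97.8%). Its medians were 12.4 TPM in set 5 and 328 TPM in set 4, the relative difference was -2.83, and it was -2.76 without the alike cells. One of its annotated transcripts holds the 16 bases of the B1-like entries, which were also lower in set 5; whether reads of the repeat enter its value was not tested. Eno1, the glycolytic enolase, was detected in 26 of 37 cells of set 5 and 26 of 29 cells of set 4, with medians of 48.7 TPM in set 5 and 281 TPM in set 4 and a relative difference of -2.21. Summed with its 3 near-identical copies it had -1.60. Glycolysis genes as a group lay on both sides. Of 18 measured, Eno1 included, 10 were above the median gene and 8 below it, with a median of 0.21. Without the alike cells 8 of 16 were above and 8 below. Hk2, a hexokinase, had 1.31. Gapdh had -0.61 alone and -0.04 when summed with its 159 copies.

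The other lowest genes included the translation initiation subunit gene Eif3m at -2.21, the chaperone partner of kinases Cdc37 at -2.11, and Strap at -2.18. Arl5c was detected in 4 of 37 cells of set 5 (10.8%, 3.03% to 25.4%) and 13 of 29 cells of set 4 (44.8%, 26.4% to 64.3%), with -2.03, and Unc50 in 4 of 37 cells of set 5 and 11 of 29 cells of set 4, with -2.06. Ube2k, B9d2 and Tmem256 completed the list with values between -2.31 and -2.17. All 12 of the lowest genes, Prtn3 and H2-Aa included, were at -2.06 or less without the alike cells.

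Some MHC class II genes were found in fewer cells of set 5. H2-Aa, the alpha chain of the I-A molecule, was detected in 3 of 37 cells of set 5 (8.11%, 1.70% to 21.9%) and 12 of 29 cells of set 4 (41.4%, 23.5% to 61.1%). Its highest level was 133 TPM in set 5 and 1779 TPM in set 4, and its relative difference was -2.16. At least one of H2-Aa, H2-Ab1 and H2-Eb1 was detected in 16 of 37 cells of set 5 (43.2%, 27.1% to 60.5%) and 20 of 29 cells of set 4 (69.0%, 49.2% to 84.7%). The intervals of this last count overlap between the sets. Cd74, the invariant chain, was detected in 5 of 37 cells of set 5 and 11 of 29 cells of set 4, with -0.94. Over the 6 measured genes of the list the median was -0.83, and 1 was at -1 or less, beside 5.26% of all measured genes. In this list 2 genes were above the median gene and 4 below it. H2-DMa, which loads peptide, had 0.04 and H2-DMb1 had 0.38. H2-Ob, of the H2-O molecule that restrains H2-DM, had 2.51, so the genes of the pathway did not move together. Of dendritic cell markers, which also go with class II, 2 of 8 were measured, at -0.32 for Tcf4 and -0.92 for Bst2 over all kept cells and at -1.12 and -1.18 without the alike cells, and summed levels overlapped, from 0 to 1206 TPM in set 5 and from 0 to 850 TPM in set 4. No B cell marker reached 1 TPM in any kept cell.

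Genes of protein folding and ribosome making were more often above the median gene than below it, and their counts of called genes stand beside 7.52% of all measured genes at 1 or more and 5.26% at -1 or less. Of 20 measured heat shock and chaperone genes, 15 were above the median gene, 5 were at 1 or more and 1 at -1 or less, with a median of 0.47; among cells with 2000 or more genes the median was 0.12. Leaving out the alike cells, 17 of 20 were above and the median was 0.66. Hspa9, the mitochondrial Hsp70, had 1.81, with detection in 29 of 37 cells of set 5 and 16 of 29 cells of set 4, and Dnajb1 had 1.34. Hspe1 and Hspd1, the mitochondrial chaperonin pair, were on the other side at -1.02 and -0.84; Hspe1 had -0.83 without the alike cells. Of 28 ribosome biogenesis genes, 18 were above the median gene, 3 were at 1 or more and none at -1 or less, with a median of 0.40 and of 0.24 in matched cells; Wdr43 had 1.85 and Nhp2 had 1.26, while Fbl, the methylase fibrillarin, had -0.998. Splicing factors had a median of 0.24 over 25 genes, or 0.10 without the alike cells, with 5 at 1 or more, led by Srsf6 at 2.26 and Hnrnpk at 1.53, and 1 at -1 or less, Tra2a at -1.17.

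Ribosomal protein genes had lower means in set 5 over all kept cells, with values near 0 among cells of higher detection. Of 47 large subunit genes 41 were below the median gene and 11 were at -1 or less, with a median of -0.51. Of 33 small subunit genes 24 were below and 7 were at -1 or less, with a median of -0.52. Among all measured genes 5.26% were at -1 or less and 7.52% at 1 or more. No gene of either ribosomal protein list was at 1 or more. The median cell detected 98.8% of these genes in each set, and they took a median of 13.7% of TPM in set 5 and 13.6% in set 4. Under 70% of them were detected in 6 cells of set 5, which had 1021 to 1361 genes in all, and in 1 cell of set 4, with 1087 genes. Among cells with 2000 or more genes the medians were -0.05 for the large and -0.09 for the small subunit, and with all columns kept they were 0.94 and 0.75. Rpl23a was detected in 31 of 37 cells of set 5 and 28 of 29 cells of set 4, its median was 2867 TPM in set 5 and 2649 TPM in set 4, and its relative difference was -1.42, or -0.64 when summed with 19 copies.

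Among proteasome subunits, those of the catalytic core's beta ring were mostly below the median gene, while the other kinds lay on both sides of it; the grouping was made after the values had been seen. Of the 7 measured beta subunits, 6 were below the median gene and 4 at -1 or less, with a median of -1.04. Psmb1 and Psmb3 had -1.58 and -1.57. Over 18 alternatives Psmb1 ran from -2.02 to -0.14 and Psmb3 from -2.48 to -0.13, so their size depends on the processing. Of the 6 ATPase subunits of the base, 3 were above it, all 3 at 1 or more, and 3 below it, down to -0.89, with a median of 0.52, and Psmc4 had 2.08 with detection in 28 of 37 cells of set 5 and 13 of 29 cells of set 4. The 7 alpha subunits, 4 above and 3 below, had a median of 0.42, and the 11 other regulatory subunits, 4 above and 7 below, had -0.10. Over all 31 subunits the median was -0.10, with 6 at 1 or more and 4 at -1 or less. The shares over all measured genes were 7.52% and 5.26%.

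Respiratory chain genes were mixed. Of 73 measured nuclear genes, 7 were at 1 or more and 9 at -1 or less (7.52% and 5.26% of all measured genes). In this list 30 were above and 43 below the median gene, with a median of -0.19. The list was also split by symbol, after the values had been seen. The 8 genes of complex III whose symbols begin with Uqcr had a median of -0.70, though Uqcrc2, one of its core proteins, had 1.47. The 35 Nduf genes had a median of -0.19, the 10 Cox genes -0.17 and the 14 Atp5 genes -0.06. The 4 Sdh genes had 0.18 and the 2 Cyc genes -0.45. Atp5b, the beta subunit of ATP synthase, had 1.53, with medians of 878 TPM in set 5 and 349 TPM in set 4. Mitochondrially encoded genes had a median of -0.30 over 13 genes, with 4 above the median gene and 9 below it. This stands beside the lower mitochondrial share of set 5 given above. The lowest were mt-Co1 at -1.03 and mt-Co3 at -0.90 (-0.95 and -1.01 without the alike cells). The highest was mt-Nd2 at 0.52, or 0.39 without the alike cells. mt-Co3 had a median of 36605 TPM in set 5 and 79484 TPM in set 4, and a lowest level of 3396 TPM in set 5 and 17681 TPM in set 4.

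Interferon-induced genes were more often below the median gene than above it. Of 27 measured, 7 were above and 20 below, 2 were at 1 or more and 3 at -1 or less (beside 7.52% and 5.26% of all measured genes), with a median of -0.29. Without the alike cells 9 of 27 were at -1 or less and the median was -0.49. Samhd1, a dNTP hydrolase, was detected in 16 of 37 cells of set 5 and 22 of 29 cells of set 4, with -1.48, and Ifitm2 had -1.27, whereas Irf9, a subunit of the interferon-activated factor, had 1.49, or 0.92 without the alike cells. Immediate early genes, which respond within minutes to handling among other stimuli, had a median of -0.05 over 24 genes; Fos had 0.92 with medians of 934 TPM in set 5 and 992 TPM in set 4, and Junb, its partner, had -1.66. Chemokine and cytokine genes had a median of 0.26 over 12 genes, with Ccl3 at 1.33 and Ccl4 at -1.19, both chemokine genes of the same cluster; without the alike cells they had 0.38 and -1.83.

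Markers of other cell types ranged from none detected to a few expressed in most cells. B cell markers had 8 of 10 genes at 0 in every kept cell, mast cell and basophil markers 6 of 7, eosinophil markers 6 of 7, T cell markers 6 of 10 and NK cell markers 5 of 8. At least one NK cell marker reached 1 TPM in 27 of 37 cells of set 5 and 21 of 29 cells of set 4, and their summed level had medians of 160 TPM in set 5 and 211 TPM in set 4; the measured one, Nkg7, had a relative difference of 0.55. A T cell marker did so in 10 of 37 cells of set 5 and 12 of 29 cells of set 4, and the measured one, Lck, had -0.99. Plasma cell markers had summed medians of 211 TPM in set 5 and 303 TPM in set 4, and the 2 measured were at 0.07 and -0.07. Neutrophil markers had 5 of 11 at 0. Their summed level in kept cells ran from 0 to 364930 TPM in set 5, set by the cell with Camp. In kept cells of set 4 it ran from 0 to 292 TPM. The set 5 cell with Camp was kept with 1021 genes. A set 4 column with Camp at 50.0% of TPM had 413 genes and was left out, so this contrast depends on the threshold. Monocyte and macrophage markers had 5 of 12 at 0, with medians of 50.5 TPM in set 5 and 77.4 TPM in set 4 and highest values of 13343 TPM in set 5 and 10905 TPM in set 4, and erythroid markers 6 of 13 at 0, with medians of 221 TPM in set 5 and 177 TPM in set 4. Their part in the differences above was not tested. Y-linked genes reached 1 TPM in no kept cell, and Xist, the RNA of the inactive X, was detected in 34 of 37 cells of set 5 and 25 of 29 cells of set 4. Genes used by nearly every cell had a median of 0.09 over 25 genes, and Actb was detected in every kept cell with a relative difference of 0.27.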

How the data were processed

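RNA of single sorted LMPPs was measured on a Fluidigm C1 chip. The deposited table holds TPM values made by the authors. The build mm10 and the tools RSEM 1.2.12 and Bowtie2 2.2.0 are named, per the submitters' processing notes. Further filters by the authors are not given in the sources used here. Depth is unknown, since every column sums to the same total. RSEM divides reads that match several places, so values of near-identical copies are uncertain. Of 168 columns, 84 were not used.

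Cells with 1000 or more genes at TPM 1 were kept. Means and SD of log2(TPM + 1), shares of cells with exact Clopper-Pearson 95% intervals and relative differences were computed per set. With 1 sample per set no p-value was computed. The floor for a count of 0 is 3 cells. Doublets were not called, since a caller needs counts. Gene types, coordinates and sequences are GENCODE vM21 (37607 of 38924 identifiers matched). Copies are transcripts of at least 90% identity over 60% of the copy, found with BLAST+ 2.17.0. Named are the 12 highest and 12 lowest relative differences among measured genes in 20% or more of the cells of either set, leaving out predicted, mitochondrial and pseudogenes, the 2 highest and 2 lowest members of each of 46 lists, and a panel of lineage, cycle and control genes; 176 genes resulted, of which those bearing on the groups described are printed; some genes and sequences are not reported here. Other members of a list named in the text, and all counts over B1-like, snRNA, satellite-like, proteasome and respiratory chain parts, were chosen after their values were seen. The members and lists were chosen with earlier results of these data known. The calculation was tested on simulated data. The versions were matplotlib 3.10.9, scipy 1.17.1, pandas 2.3.3, numpy 2.4.6 and Python 3.11.15.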

Additional observations from a re-analysis of the deposited data

How the results depend on the processing

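Of 576 list medians recomputed under 18 alternatives, 550 moved by less than 0.5, 21 moved by more and 5 reversed. Those that moved by less than 0.5 include medians that came to about 0 or changed sign: the G2 and mitosis median was 0.000788 in matched cells and 0 with medians over cells, against 0.35. Of 3168 values of single genes, 386 lost a call or gained one in their own direction, and 9 with a call reversed. The numbers of genes at 1 or more and at -1 or less were 1239 and 1131 with a pseudocount of 0.1, 115 and 50 with 10, and 1730 and 1648 from the log2 of mean TPM. With a pseudocount of 0.1 the G1 regulator median was -0.0330 against 0.0915, the satellite-like median -1.92 and the snRNA median 1.51. With 10 the satellite-like median was -0.50 and the snRNA median 0.36. From mean TPM they were -0.62 and 0.37. Without a filter on low genes the snRNA median was 0.32 and the miRNA median -0.71, and with genes in 30% or more of cells the miRNA median was -2.60. Taking medians over cells gave 0 for miRNA and for snRNA entries, 0.0544 for large and -0.00260 for small subunit ribosomal proteins, and reversed Hspa5 (-0.38), Csf3r (0.22) and Rpl23a (0.11). Keeping all columns gave 0.94 and 0.75 for the large and small subunit and reversed Hspe1 (0.34), Ifitm2 (0.0632), Rps12 (0.0929), Rpl23a (1.33), Fau (0.77) and Rpl22l1 (0.31). In 26 cells of each set matched on genes detected the small subunit had 0.0133. The set difference in median genes detected, 146, was 881 with all columns, 71.5 in matched cells and 95 without the alike cells. The cause of each was not tested. Higher calls made up 58.9% of calls, 69.7% with a pseudocount of 10 and 71.5% with all columns. They made up 51.2% from the log2 of mean TPM, 52.3% with a pseudocount of 0.1 and 53.1% without the alike cells. No paired analysis was possible because the set columns name no animal and cell numbers only name cells. Each set is 1 sample, and depth is unknown.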

Other observations

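Genes of noncoding and structural RNA that the comparison above leaves aside gave further values, with no explanation offered. Of 14 measured nuclear and snoRNA host long noncoding RNAs, 9 were above the median gene, with a median of 0.25. In this list 3 had a relative difference of 1 or more and none of -1 or less. The shares over all measured genes were 7.52% and 5.26%. Snhg5 was detected in 27 of 37 cells of set 5 and 16 of 29 cells of set 4, with 1.54, and Snhg3 in 21 of 37 cells of set 5 and 11 of 29 cells of set 4, with 1.29, or 0.95 without the cells that were far more alike than the rest. Gas5, another snoRNA host, had medians of 2436 TPM in set 5 and 2446 TPM in set 4 and a relative difference of -0.69 (-1.01 without these cells), and it was under 1 TPM in 2 cells of set 5 and in no cell of set 4. Rn7sk, the 7SK RNA that holds back a transcription elongation kinase, had 0.63.

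Survival and stress genes were spread on both sides. Mcl1, an antiapoptotic Bcl2 family member, was detected in 25 of 37 cells of set 5 and 14 of 29 cells of set 4, with 1.29. Bax, which promotes cell death, was detected in 3 of 37 cells of set 5 and 8 of 29 cells of set 4, with -1.11, or -0.99 without the alike cells. These were the ends of the Bcl2 family list. Of its 6 measured genes, 2 were above the median gene and 4 below it. The list median was -0.27, or -0.41 without the alike cells. Bid, another member, had 0.46, or 0.79 without the alike cells. Of 14 measured p53 target genes, 9 were below the median gene, with a median of -0.16. In this list 2 were at -1 or less and none at 1 or more, beside 5.26% and 7.52% of all measured genes. Phgdh, the first enzyme of serine synthesis, had 2.196, with medians of 116 TPM in set 5 and 0.37 TPM in set 4, while Psat1, a later enzyme of that pathway, had -0.84. Aldoc, an aldolase, was detected in 8 of 37 cells of set 5 and was at 0 in all 29 cells of set 4. Without the alike cells its share in set 5 was 14.3%. DNA methylation genes had a median of -0.16 over 12 genes, with none at 1 or more or at -1 or less, and Dnmt3b at 0.72 and Dnmt3a at -0.58 were its ends.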
